A study of Mus musculus with 2 samples.

Results

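The 35 genes of the autophagy machinery followed here encode the proteins that build an autophagosome and load it with cargo. They were taken by symbol from a list of named genes that sets no threshold on a measured value, though the list was drawn up with earlier results of these data known. All 35 were found among the 15623 genes listed in either library, and each had at least 200 reads over both libraries. RNA was sequenced from peritoneal macrophages of wild-type C57BL/6 mice, aged 6 to 8 weeks by the methods of the study. The mice had been injected with 4% thioglycolate, an irritant that draws macrophages into the peritoneal cavity, and the cells were collected 4 to 5 days later, left to adhere for 4 h and starved in medium with 0.5% serum. Both groups therefore shared the elicitation and the starvation, and differed in that one was nontreated (NT) and the other received mouse IL-4 for 6 h. IL-4 is the Th2 cytokine that drives M2 polarization. Each group held 1 library. No difference below was checked against a spread between animals, and no p-value is given.

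Autophagy delivers cytoplasm, damaged organelles and microbes to the lysosome inside a double membrane. The ULK1 kinase complex starts the process, a class III PI3K complex marks the membrane with phosphatidylinositol 3-phosphate, lipid transfer proteins feed the growing membrane, and a ubiquitin-like conjugation system attaches ATG8 proteins (LC3 and GABARAP) to it. Cargo receptors then tie selected cargo to the ATG8 proteins. In macrophages the same proteins serve pathogen clearance, the control of inflammasomes and mitochondrial quality control. Starvation is a classical trigger of the pathway, and its activity is set in large part by phosphorylation and lipidation, which RNA levels do not measure.

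The libraries held 11035641 (NT) and 11250099 (IL-4) expected counts, so that 3 counts, the smallest abundance taken as shown, corresponded to 0.272 and 0.267 CPM (counts scaled to the library total). The lowest member count was 86, well above that floor. The labels name peritoneal macrophages as the source and bone marrow as the tissue, which macrophage markers cannot tell apart. All 8 macrophage markers had reads in both libraries (Cd163 only 3.42 counts in NT), with a summed level of 17078 CPM in NT and 17396 CPM in IL-4. Lyz2 and Cd68 were the most abundant, and of the list Csf1r was called higher and Cd14 lower by the rule given below. Summed markers of B cells, T cells, neutrophils, eosinophils and mast cells lay between 1.87 and 9.61 CPM in either library, and 5 of 6 neutrophil markers had no reads in either, Ly6g included. Mesothelial and fibroblast markers summed to 154 CPM in NT and 138 CPM in IL-4. Within these lists Krt8 was called higher (20 and 74 counts), and Msln (12 and 2 counts) and Siglecf (53 and 27 counts) were called lower. The part of other cells in the results was not tested. Of 4 adipocyte markers, 3 were at 0 in both libraries and Adipoq had 139 counts in IL-4 only. All 7 genes of a list of known IL-4 targets, Arg1 and Mrc1 among them, were higher in the IL-4 library, the least of them, Mrc1, by 3.33 on the log2 scale. In bulk RNA a difference in cell number of one kind and a difference in RNA per cell cannot be told apart.

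The level of a gene is given as FPKM, which is scaled for transcript length, so that different genes may be set side by side. The difference is a log2 ratio, IL-4 over NT, taken on expected counts scaled to the library totals, with an exact 95% interval of counting error. To be called, a gene needed a ratio of 0.75 or more in size, the limit of the study for this comparison, and an interval without 0. The interval treats reads as independent molecules, which PCR copies are not. The ratio falls with transcript length across all genes of these libraries, so a further ratio, the length-adjusted one, is given relative to the median of 200 genes of similar length. Its interval is the counting interval shifted by that median. The error of the median itself is left out, so an adjusted interval that clears 0 narrowly is less certain than it looks.

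Of the 35 autophagy genes, 1 was called higher upon IL-4 stimulation and 0 were called lower. This was 2.86% of the members, beside 4.07% of all 15593 tested genes called higher and 6.28% called lower. Among the 8463 genes with at least 200 reads, a depth that every member reached, the backgrounds were 3.58% higher and 5.83% lower. The share called higher was thus near the background. The median log2 ratio of the members was -0.10, against 0.00 for the genes with at least 200 reads and -0.03 for all tested genes. Individual ratios ran from -0.68 (Ulk1) to 0.82 (Vmp1). On the lower side of 0 were 22 of the 35 (62.9%), and 13 were above it. Among the 8463 genes with at least 200 reads, 4216 were below 0 and 4247 above it.

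**Figure D1:**
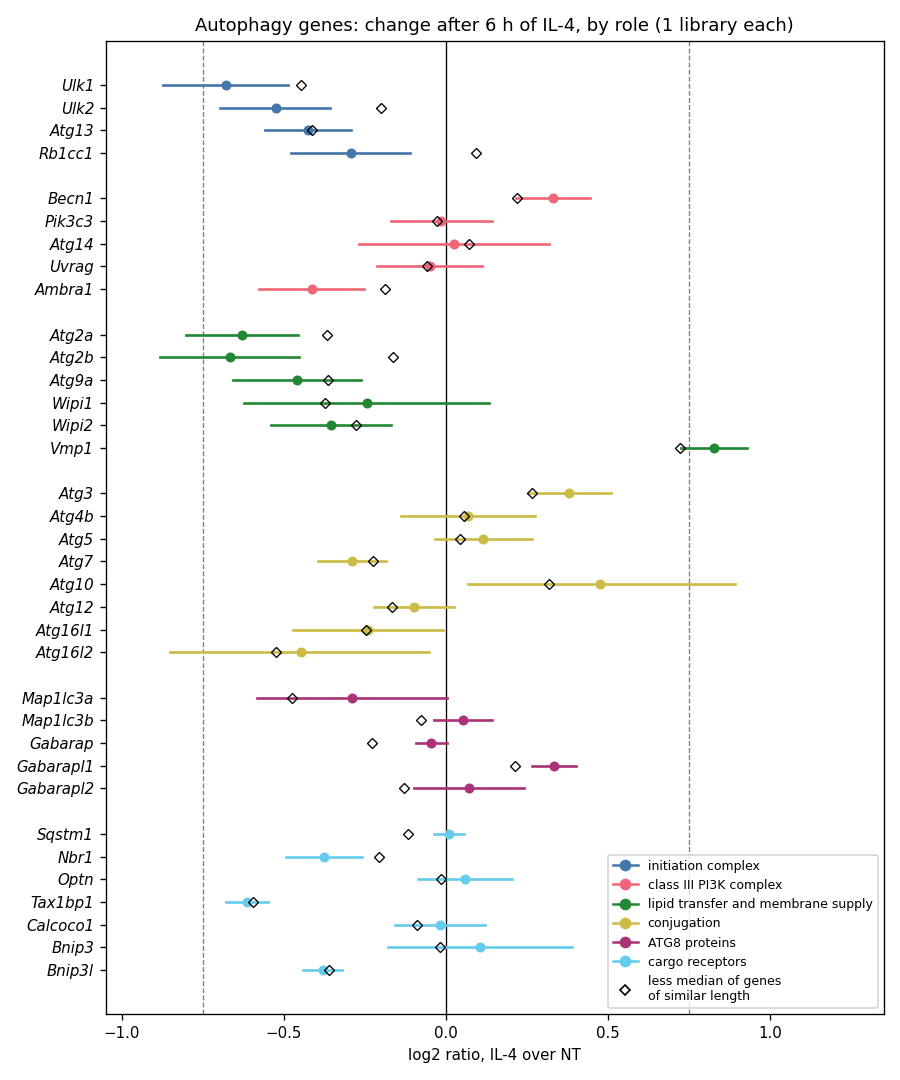
The log2 ratio (x axis, IL-4 over NT) is plotted for each of the 35 genes (y axis, grouped by role), with filled points for the ratio, bars for its 95% counting interval, open diamonds for the length-adjusted ratio and dashed lines at the threshold of 0.75. Vmp1 alone has its point beyond a dashed line, at 0.82, and its diamond lies just inside at 0.72.

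Vmp1, a membrane protein of the endoplasmic reticulum with lipid scramblase activity that is needed for the autophagosome to form and detach, was the member called. It had 1232 expected counts in NT and 2225 in IL-4, or 40.1 and 70.9 FPKM, a 1.77-fold difference. Its log2 ratio of 0.82 had an interval from 0.72 to 0.93, which included the threshold. The length-adjusted ratio was 0.72 (0.62 to 0.82), under the threshold but clear of 0. Vmp1 (gene 75909) lies on chromosome 11 from 86583858 to 86683836 (GRCm38), on the minus strand. The precursor of miR-21a is annotated on the same strand, from 86584067 to 86584158, and all 92 of its bases fall in exon 12 of the 12 exons of the main GENCODE transcript (86583865 to 86585451). That exon holds the 3′ end of the Vmp1 message. Reads from a primary miR-21a transcript that runs through this exon and reads from Vmp1 mRNA cannot be told apart in a gene total, and their part in the value was not tested. The mature products, as given by RefSeq (GRCm38.p6), are printed for the link between the called gene and this microRNA, with the seed (bases 2 to 8) in capitals.
mmu-miR-21a-5p (chr11:86584120-86584141, minus strand): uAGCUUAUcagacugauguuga
mmu-miR-21a-3p (chr11:86584082-86584103, minus strand): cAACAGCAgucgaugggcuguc
These libraries measured longer RNA, and the level of mature miR-21a was not analysed here.

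The 250 bases before the start of Vmp1 (RefSeq, GRCm38.p6, chr11:86683837-86684086, minus strand) are shown because Vmp1 was the called member, beside 218 bases before Gabarapl1 (chr6:129532942-129533159, plus strand), the ATG8 gene with the largest positive ratio. Capitals mark a match to the STAT-type palindrome TTCNNNGAA.
Vmp1: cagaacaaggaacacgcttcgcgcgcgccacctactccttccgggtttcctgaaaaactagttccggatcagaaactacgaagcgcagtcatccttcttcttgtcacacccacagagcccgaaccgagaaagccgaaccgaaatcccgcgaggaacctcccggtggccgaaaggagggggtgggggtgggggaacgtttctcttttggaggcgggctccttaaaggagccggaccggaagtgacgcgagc
Gabarapl1: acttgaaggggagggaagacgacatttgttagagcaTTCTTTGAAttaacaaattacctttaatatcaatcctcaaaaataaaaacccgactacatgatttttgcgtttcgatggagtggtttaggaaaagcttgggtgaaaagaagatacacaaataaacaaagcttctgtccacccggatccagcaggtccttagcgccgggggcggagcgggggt
The Gabarapl1 run stops 32 bases short of the RefSeq start, where GENCODE has its earliest start. No window was matched for Becn1, Map1lc3a, Bnip3l, Rb1cc1, Atg16l1, Atg12 and Pik3c3. Windows from 250 bases before to 50 bases after the start were matched for 28 of the 35 genes (32 windows, since some genes have several starts) and were searched on both strands.

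The palindrome TTCNNNNGAA, the spacing that Stat6 prefers, was found in 6.95% of all 32851 windows and in 1 of the 32 member windows, that of Gabarap (TTCACTCGAA, 31 to 40 bases past the start). The shorter palindrome TTCNNNGAA was found in 8.30% of all windows and in 4 member windows, those of Gabarap, Gabarapl1, Nbr1 and Wipi1. The core of the element bound by TFEB, TCACGTG, was in 3.77% of all windows and in 3 member windows, those of Atg3, Atg7 and Atg14. Atg3 held it more than once, and one of its matches overlaps another on the opposite strand. The palindromes read the same on both strands and were counted once. The FOXO core TGTTTAC was in 3.65% of all windows and in 0 member windows. None of these 4 motifs was found in the 3 Vmp1 windows. The genes that held a palindrome had log2 ratios from -0.38 (Nbr1) to 0.33 (Gabarapl1), on both sides of 0. A match is only a run of letters, and binding was not measured.

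The initiation complex is built from the kinases Ulk1 and Ulk2 with the adaptors Atg13 and Rb1cc1 (FIP200). All 4 genes had a lower level in the IL-4 library with an interval below 0, but none was called. Atg13, the most abundant of them and the subunit that ties the kinase to Rb1cc1, had 1090 counts in NT and 827 in IL-4 (27.4 and 20.4 FPKM). Its log2 ratio was -0.43 (-0.56 to -0.29), and the length-adjusted ratio was close to that at -0.41. Ulk1, the kinase through which starvation signals are read, had 577 and 367 counts (9.92 and 6.18 FPKM) and a log2 ratio of -0.68 (-0.87 to -0.49). This was the lowest ratio of all 35 members. Its transcript is 5215 bases long, and the length-adjusted ratio was -0.45 (-0.64 to -0.26). Ulk2, its paralog, had 10.7 FPKM in NT and 7.39 in IL-4, a log2 ratio of -0.53. For Ulk2 the length-adjusted ratio was -0.20 (-0.37 to -0.03). The Ulk1 to Ulk2 ratio of FPKM was 0.931 in NT and 0.836 in IL-4, and the interval of its log2 change (-0.41 to 0.10) held 0. Rb1cc1, the large scaffold on which the complex assembles, had 6.84 and 5.58 FPKM and a log2 ratio of -0.29 (-0.48 to -0.11). With a length of 7046 bases it had a length-adjusted ratio of 0.09 (-0.09 to 0.27). Thus 3 of the 4 kept an interval below 0 after the adjustment and Rb1cc1 did not. Of genes with at least 200 reads, 26.6% had an adjusted interval below 0.

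Of the class III PI3K genes, Becn1 and Ambra1 had intervals on opposite sides of 0 and the others held 0. Becn1 (Beclin 1), the regulatory subunit, had 1111 counts in NT and 1424 in IL-4 (49.6 and 62.3 FPKM), a log2 ratio of 0.33 (0.22 to 0.44). Its length-adjusted ratio was 0.22 (0.11 to 0.33). Ambra1, which binds Beclin 1 and links it to ULK1, had 12.4 FPKM in NT and 9.33 in IL-4, a log2 ratio of -0.41 (-0.58 to -0.25) and a length-adjusted ratio of -0.19. The catalytic lipid kinase Pik3c3 (Vps34) was at 19.5 and 19.3 FPKM, with a log2 ratio of -0.01 (-0.17 to 0.14). The 2 subunits that define alternative forms of the complex were close to 0 as well. Atg14, of the form that starts autophagosomes, had a log2 ratio of 0.02 (-0.27 to 0.32) at 5.01 and 5.09 FPKM. Uvrag, of the form that acts on endosomes and later steps, had -0.05 (-0.21 to 0.11) at 16.6 and 16.0 FPKM. These 5 genes summed to 303 CPM in NT and 310 CPM in IL-4, a sum without Nrbf2 and Pik3r4, which also encode subunits and are not among the 35.

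Among the genes for lipid transfer and membrane supply, 5 of 6 had a negative ratio and Vmp1 was the exception. Atg2a and Atg2b encode bridges that carry lipid from the endoplasmic reticulum to the growing membrane. Atg2a had 697 counts in NT and 459 in IL-4 (9.84 and 6.35 FPKM), a log2 ratio of -0.63 (-0.80 to -0.46). Atg2b had 466 and 299 counts (4.09 and 2.57 FPKM), a log2 ratio of -0.67 (-0.88 to -0.46). The paralogs stood in about the same ratio to each other in both libraries, 2.41 in NT and 2.47 in IL-4. After the length adjustment Atg2a was at -0.37 (-0.54 to -0.20), but Atg2b, with 10173 bases the longest member, was at -0.17 with an interval (-0.38 to 0.05) that held 0. Atg9a, a scramblase carried on the vesicles that seed the membrane, had 11.6 and 8.43 FPKM and a log2 ratio of -0.46 (-0.66 to -0.26). Wipi2 reads phosphatidylinositol 3-phosphate and recruits the conjugation machinery. It had 12.4 FPKM in NT and 9.70 in IL-4, a log2 ratio of -0.36 (-0.54 to -0.17), and 129 and 111 counts were seen for its relative Wipi1, whose interval (-0.62 to 0.13) held 0.

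**Figure D2:**
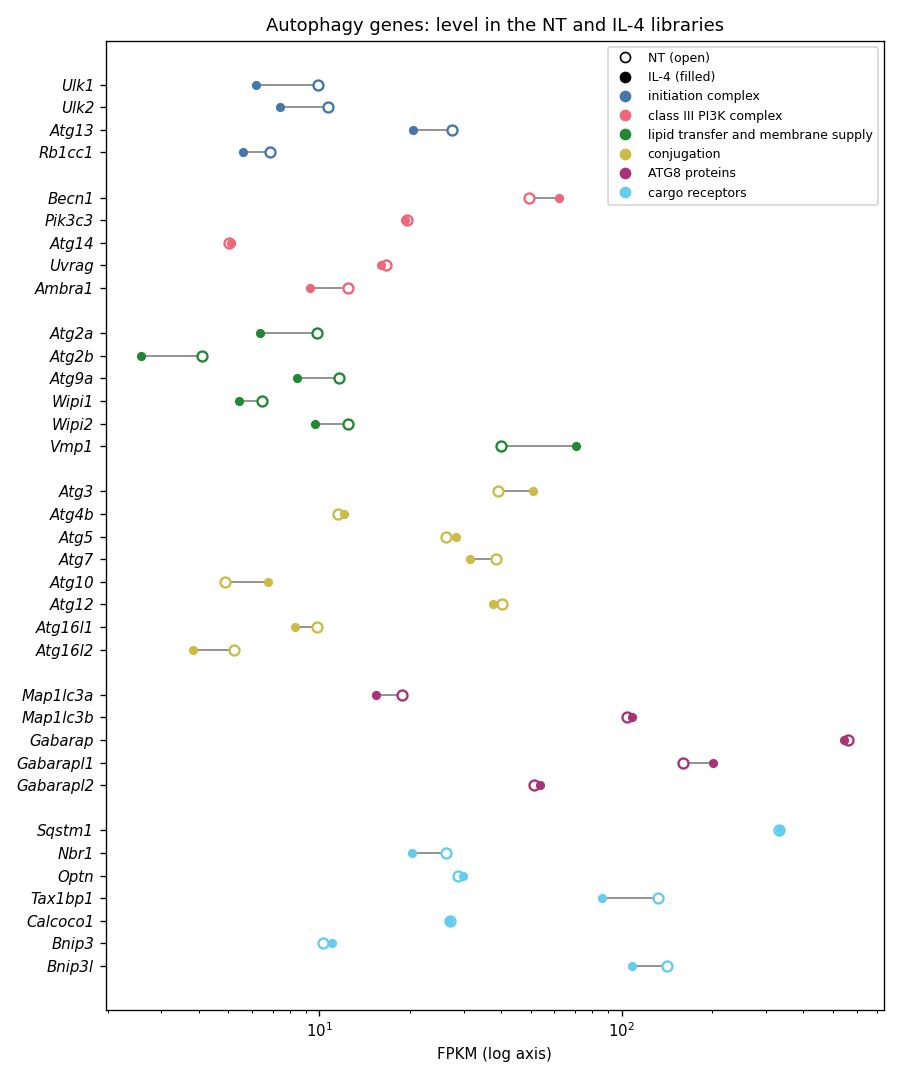
FPKM on a log axis (x) is plotted for each gene (y, grouped by role), with open circles for NT and filled circles for IL-4 joined by a line. The genes span from 2.57 FPKM (Atg2b in IL-4) to 564 FPKM (Gabarap in NT), and the lines are short against that span.

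The conjugation genes lay on both sides of 0, with 4 ratios above it and 4 below, and none was called. Atg3, the E2-like enzyme that passes LC3 to its lipid, had the highest mean level of them, with 867 counts in NT and 1150 in IL-4 (39.0 and 50.8 FPKM). Its log2 ratio was 0.38 (0.25 to 0.51), and 0.27 (0.14 to 0.40) after the length adjustment. Atg7, the E1-like enzyme that activates both ubiquitin-like proteins, went the other way at 38.4 and 31.5 FPKM, a log2 ratio of -0.29 (-0.40 to -0.18) and -0.23 adjusted. Atg10, the E2-like enzyme for Atg12, had a log2 ratio of 0.47 on 86 and 121.96 counts, with a wide interval (0.07 to 0.89) at that depth. Its length-adjusted interval (-0.09 to 0.73) held 0. Atg10 was the only member with a count that was not whole, as RSEM gives where it divides reads between genes. Atg12 and Atg5 form the conjugate that directs LC3 lipidation. Atg12 had 40.3 and 37.6 FPKM (log2 ratio -0.10, -0.22 to 0.02) and Atg5 had 26.2 and 28.4 FPKM (0.11, -0.04 to 0.26). Neither interval cleared 0. After the length adjustment that of Atg12 lay below 0 (-0.29 to -0.05), and that of Atg5 held it (-0.11 to 0.19). Atg16l1, which carries the conjugate to the membrane, had a log2 ratio of -0.24 (-0.47 to -0.01) at 9.82 and 8.30 FPKM. Its paralog Atg16l2 had -0.45 (-0.85 to -0.05) at 5.22 and 3.82 FPKM, and -0.52 (-0.93 to -0.13) adjusted. Atg4b, the protease that primes and recycles LC3, was at 11.5 and 12.0 FPKM with a ratio of 0.07 (-0.14 to 0.27).

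Of the ATG8 genes, 4 lay above the median level of the 35 genes in both libraries and Map1lc3a lay below it, and their summed level was 898 FPKM in NT and 924 FPKM in IL-4. Gabarap, which acts late in autophagosome closure and fusion, made up most of it. It had 6875 counts in NT and 6790 in IL-4 (564 and 546 FPKM), above 99.2% of the genes listed in NT. The log2 ratio of Gabarap was -0.05 (-0.09 to 0.00), and its length-adjusted ratio was -0.23 (-0.28 to -0.18). Gabarapl1 had 3127 counts in NT and 4011 in IL-4 (160 and 202 FPKM), a log2 ratio of 0.33 (0.26 to 0.40) and a length-adjusted ratio of 0.21 (0.14 to 0.28). The make-up of the family differed between the libraries by more than counting error. Gabarapl1 made up 17.8% of the summed FPKM in NT (17.2 to 18.4, delta-method 95% interval of counting error) and 21.8% in IL-4 (21.2 to 22.4), while Gabarap went from 62.7% (61.9 to 63.6) to 59.0% (58.2 to 59.9). The Gabarap to Gabarapl1 ratio was 3.52 in NT and 2.71 in IL-4, a log2 change of -0.38 (-0.46 to -0.29).

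**Figure D3:**
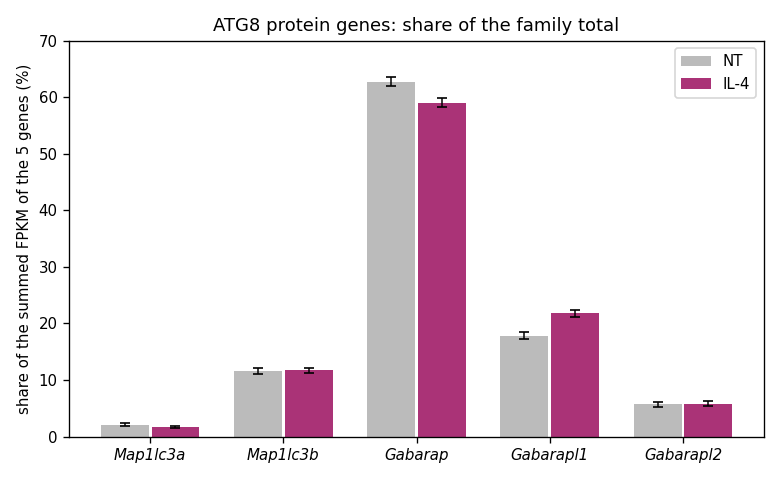
The share of each ATG8 gene in the summed FPKM of the 5 genes (y axis, percent) is shown for NT (grey) and IL-4 (purple), with bars for the 95% interval of counting error. Gabarap leads at 62.7% and 59.0%, and the bars of Gabarapl1 stand apart at 17.8% and 21.8%.

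The LC3 genes and Gabarapl2 had intervals that held 0. Map1lc3b (LC3B), whose lipidated form is the usual marker of autophagosomes, had 1963 and 2075 counts (104 and 108 FPKM) and a log2 ratio of 0.05 (-0.04 to 0.14). Map1lc3a (LC3A) was at 18.8 FPKM in NT and 15.4 in IL-4, with a log2 ratio of -0.29 (-0.58 to 0.00). Map1lc3b was thus the dominant LC3 gene in both libraries, by 5.54 times in NT and 7.03 times in IL-4. Gabarapl2 (GATE-16), which also serves traffic in the Golgi, had 51.3 and 53.8 FPKM and a ratio of 0.07 (-0.10 to 0.24). The length-adjusted ratio of Map1lc3a was -0.48 (-0.77 to -0.18), the farthest from 0 of the 5 genes on that scale, while those of Map1lc3b and Gabarapl2 held 0.

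Of the cargo receptors, Tax1bp1, Bnip3l and Nbr1 had intervals below 0 and the others held it. Sqstm1 (p62), the receptor that gathers ubiquitinated cargo and is itself degraded with it, was the most abundant at 333 FPKM in NT and 335 in IL-4. Its 7419 and 7604 counts gave a log2 ratio of 0.01 (-0.04 to 0.05), among the most precise of the members. The length-adjusted ratio of Sqstm1 was -0.12 (-0.16 to -0.07), with an interval below 0. Tax1bp1, a ubiquitin-binding receptor that also restrains NF-κB signalling, had 4859 counts in NT and 3237 in IL-4 (132 and 86.4 FPKM). Its log2 ratio was -0.61 (-0.68 to -0.55), a 1.53-fold lower level in IL-4. Of all the members it had the lowest length-adjusted ratio, -0.60 (-0.66 to -0.53), since genes of its length (3307 bases) were close to 0. Nbr1, which acts with p62 in gathering ubiquitinated cargo, had 26.2 and 20.2 FPKM and a log2 ratio of -0.38 (-0.49 to -0.26). Optn (optineurin), which recognises ubiquitin-coated bacteria and mitochondria, was at 28.80 and 29.96 FPKM with a ratio of 0.06 (-0.09 to 0.20). Calcoco1, a receptor for the endoplasmic reticulum and Golgi, was at 27.1 and 26.8 FPKM with a ratio of -0.02 (-0.16 to 0.12).

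The mitophagy receptors Bnip3 and Bnip3l (NIX) sit in the outer mitochondrial membrane and bind ATG8 proteins directly. Bnip3l had 5069 counts in NT and 3968 in IL-4 (141 and 108 FPKM), a log2 ratio of -0.38 (-0.44 to -0.32) that was almost unchanged by the length adjustment (-0.36). Bnip3 was much lower, at 10.25 and 11.01 FPKM, with a ratio of 0.10 (-0.18 to 0.39) and -0.02 (-0.30 to 0.27) adjusted. The Bnip3l to Bnip3 ratio was 13.8 in NT and 9.82 in IL-4, a log2 change of -0.49 (-0.77 to -0.20) without length adjustment.

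Taking counting error alone, 5 members had an interval above 0 (14.3%), 15 below (42.9%) and 15 held it. Among all genes with at least 200 reads, 28.0% had an interval above 0 and 30.2% below. The methods of the study also name a fold above 1.5, there together with a false discovery rate. At a fold of 1.5 and an interval without 0, 1 member was higher (Vmp1) and 4 were lower (Ulk1, Atg2a, Atg2b and Tax1bp1). The backgrounds at that limit were 5.73% higher and 9.57% lower, beside 11.4% of members lower.

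Transcript length bears on several of these values. The median log2 ratio of all genes with at least 200 reads went from 0.18 in the 847 shortest (median 888 bases) to -0.44 in the 847 longest (median 7571 bases). The initiation genes had a median length of 5514 bases and the ATG8 genes one of 1122 bases, while the 35 members together had 2964 bases. After the length adjustment 4 members had an interval above 0 (Becn1, Vmp1, Atg3 and Gabarapl1), 17 below and 14 held it, beside backgrounds of 25.2% above and 26.6% below. The adjusted ratio was below 0 for 26 members and above it for 9, beside 4257 and 4206 of the genes with at least 200 reads. The adjusted median was -0.17 for the members and 0.00 for the genes with at least 200 reads. No member was called after the adjustment, beside 310 called higher and 302 called lower of the 8463 genes with at least 200 reads. Length cannot be told apart from other properties of the 2 libraries with 1 library per group.

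**Figure D4:**
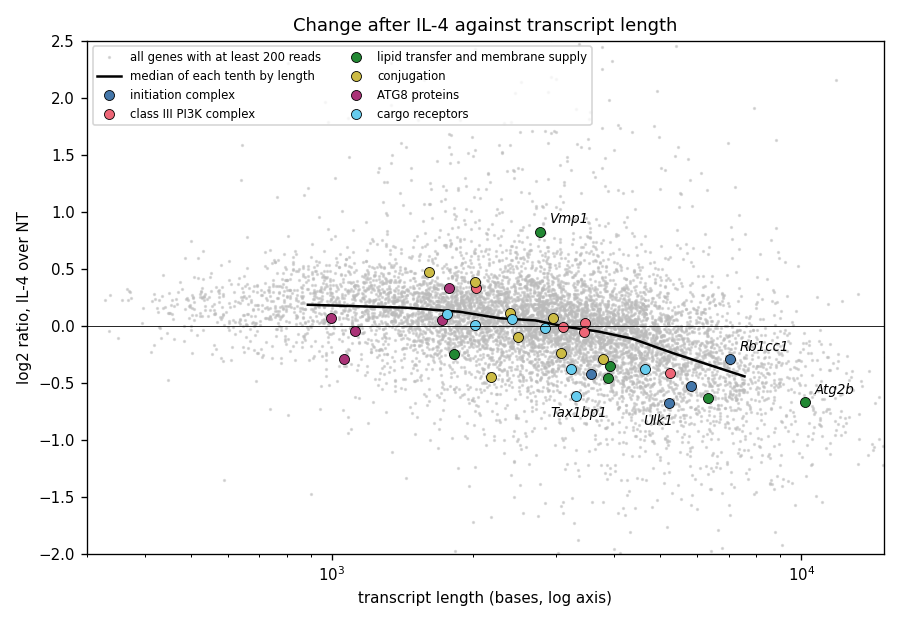
The log2 ratio (y, IL-4 over NT) is plotted against transcript length in bases (x, log axis) for the genes with at least 200 reads (grey, 76 of them outside the axes), with medians of 10 equal groups by length joined by a black line and the 35 genes coloured by role. The line falls to -0.44, Vmp1 lies above it, and Tax1bp1, Ulk1, Atg13 and Atg2a are among the members below it. The adjusted intervals of the long genes Rb1cc1 and Atg2b held 0.

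The other genes of the pathway, 58 genes from lists for further core proteins, fusion and transport, other selective receptors and upstream control, were examined beside the members. Of these, 1 was called higher and 5 were called lower, beside 4.07% and 6.28% of all tested genes, and their median log2 ratio was -0.04. Nrbf2, a subunit that binds the Atg14 form of the class III PI3K complex, rose from 352 to 1148 counts (17.9 to 57.1 FPKM). Its log2 ratio of 1.68 (1.504 to 1.854) exceeded that of every member, and it was 1.55 after the length adjustment. Within the complex it thus stood apart from Atg14 (0.02) and Pik3c3 (-0.01). Retreg1 (FAM134B), a receptor for the degradation of the endoplasmic reticulum, fell from 758 to 265 counts (-1.54, -1.75 to -1.34). Dapk1, a kinase that phosphorylates Beclin 1, fell from 1178 to 405 counts (-1.57, -1.73 to -1.40). Tecpr1, which takes part in autophagosome and lysosome fusion, fell from 3345 to 1785 counts (-0.93, -1.02 to -0.85). These 4 were also past the threshold after the length adjustment. Fyco1, a transport adaptor that binds LC3, and Wdfy3 (ALFY), a scaffold for the removal of aggregates, had log2 ratios of -1.09 and -1.06 but length-adjusted ratios of -0.64 and -0.46, under it.

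Of the list for upstream control, 6 genes encode transcription factors that act on autophagy genes. Tfeb, the master regulator of lysosome and autophagy genes, had 913 counts in NT and 1254 in IL-4, a log2 ratio of 0.43 (0.31 to 0.55). Its relative Mitf had a ratio of 0.51 (0.39 to 0.63), while Tfe3 had -0.08 (-0.18 to 0.02). Foxo3, which drives several of the member genes in other tissues, had -0.51 (-0.75 to -0.27), while Foxo1 had -0.03 (-0.32 to 0.26). Zkscan3, a repressor of autophagy genes, had -0.17 (-0.44 to 0.11). None of these 6 was called, and the activity of these proteins was not measured.

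Some members share exon sequence with a gene on the opposite strand, 13 in all by GENCODE M21. Overlaps were taken over the exons of all annotated transcripts of both genes. The longest was that of Becn1 with Cntd1 (3104 bases), and Cntd1 had 295 counts in NT and 350 in IL-4. The Becn1 transcript length used for FPKM was 2031 bases, so part of this overlap lies outside the quantified transcript. Gabarapl1 shares 570 bases with 1700101I11Rik, a noncoding gene with 3 counts in NT and 23 in IL-4. Whether the counting used strand is not given in the sources used here, so reads in such overlaps cannot be assigned for certain. On the same strand, where strand could not separate reads, Atg9a shares 1832 bases with the noncoding gene Gm29253. Gm29253 had a count of 0 in both libraries. The overlap of Vmp1 with the miR-21a precursor, given above, is also on the same strand. The expected counts of 34 of the 35 members were whole numbers in both libraries.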

How the data were processed

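RNA was measured in 2 libraries, NT and IL-4, grouped by the sample titles. The authors used Bowtie to map the reads (GRCm38/mm10) and RSEM to quantify genes. Their versions are not given in the sources used here. The deposited tables hold expected counts, which are RSEM estimates of the reads of each gene, and FPKM values that the authors scaled for length and assigned fragments. A weighted transcript length is also given. The lowest FPKM listed was 0.01, and an unlisted gene was set to 0.

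Gene numbers were matched to symbols through a RefSeq table of GRCm38.p6 (15587 matched, 36 not). Ratios used 0.5 count added in each library. Counts were rounded for exact Clopper-Pearson 95% intervals, and 30 genes that rounded to 0 in both were left out. Intervals cover counting error only. With 1 library per group no edgeR quasi-likelihood test could be fitted. The length trend used genes with at least 200 reads. Intervals of ratios between paralogs used the normal approximation on the log scale, and these ratios were not adjusted for length.

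The members and gene lists were chosen with earlier results of these data known. Every member is described, with counts, interval and adjusted ratio given in full for those called and the most abundant of each role. Other pathway genes are named where called. The paralog pairs, the 6 transcription factors, the Gabarapl1 promoter and the motif search beyond Vmp1 were added after values were seen. Alternatives were TMM (edgeR 4.0.16) and median-of-ratios factors (from DESeq2 1.42.0), totals that leave out the 100 genes with most reads, the deposited FPKM plus 0.1 or plus 1, length adjustment, other thresholds, an assumed coefficient of variation of 0.1 or 0.2, at least 50 counts, and whole counts only. The procedure was tested on simulated data. Scripts ran in R 4.3.3 and in Python 3.11.15 (scipy 1.17.1, numpy 2.4.6, pandas 2.3.3, with matplotlib 3.10.9 for plots).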

Additional observations from a re-analysis of the deposited data

How the results depend on the processing

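No paired analysis was possible because NT and IL-4 are single libraries, and for the same reason no replicate could be left out. The number of members called higher was 1 (Vmp1), and it was 0 with the length trend subtracted, where Vmp1 was at 0.72, and 0 when the limit was set to 1 on the log2 scale. The cause of the length trend was not tested. The number called lower was 0, and it was 4 at a fold of at least 1.5, a looser limit by construction. Under the other alternatives run both numbers were as reported, among them an assumed coefficient of variation of 0.2, the largest run. Whether the call of Vmp1 holds at a larger variation was not tested, and the variation between animals was not measured. In the main setting no member reached the threshold on the lower side (lowest Ulk1, -0.68). The assumed variation widens the intervals and the count filters only leave genes out. Neither could have added a gene called lower, and the filters could not have removed Vmp1. Under the 3 other scalings the median log2 ratio of the members ran from -0.12 to -0.06, and it was -0.17 with the length trend subtracted or with whole counts only. The sign of Pik3c3 and Calcoco1 changed with TMM or median-of-ratios scaling and that of Sqstm1 with the 100 most abundant genes left out, all at ratios near 0. Subtracting the length trend changed the sign of Rb1cc1, Map1lc3b, Gabarapl2, Sqstm1, Optn and Bnip3. Over single members, 401 comparisons with an alternative stayed within the counting interval and on their side of the threshold. Another 12 left the interval with no change of call, all with the length trend subtracted. A call was gained in 4 and lost in 2, both of them Vmp1, which with the length trend subtracted also lay just outside its interval. The other thresholds, the assumed coefficients of variation and both count filters left every ratio unchanged, so it could not leave its interval. Under both filters the call was fixed as well, and the filter of at least 50 counts removed no member. Depth limited Atg10, Atg16l2 and Wipi1 most, and the lack of replicates limited every member.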

Other observations

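The weighted transcript length, which follows the mix of isoforms that RSEM estimated for a gene, was the same in both libraries for 28 of the 35 autophagy genes. It differed for 7 (Ambra1, Atg9a, Atg5, Atg7, Atg16l1, Sqstm1 and Nbr1), and the largest difference was 0.202%, for Nbr1, from 4656 bases in NT to 4646 bases in IL-4. The IL-4 library had the shorter value for 5 of them and the longer value for 2.

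The start of Gabarap differs between annotations. RefSeq places it at 69991370 on chromosome 11, and the earliest GENCODE M21 exon starts at 69991143, 227 bases earlier. The palindromes given for its RefSeq window thus lie past the earliest GENCODE start. Whether they fall in an exon was not examined.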
